A study of Mus musculus with 4 samples.

Results

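Low-S transitioning cells were germinal center (GC) B cells that the deposited annotation places between centroblasts (CB) and centrocytes (CC) and whose S-phase score was 0 or less. Members were chosen by a measured value, so low S-phase transcripts in them are no finding. A cell was a member when its subtype was the transition from CB to CC and its deposited S-phase score was 0 or less. The score is the mean expression of a list of S-phase genes in the cell minus that of control genes, so a score of 0 or less does not mean that S-phase transcripts are absent. This rule found 1795 cells, out of 3758 transitioning cells and 9804 annotated GC B cells. The other 1963 transitioning cells, with a score above 0, are called the remaining transitioning cells. The member nearest the limit had a score of -0.000632 and the nearest cell outside it 0.000418. Within 0.05 of the limit lay 237 members and 221 remaining cells, so the rule divides a continuous range of scores.

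The cells came from the spleens of 4 mice, 1 for each genotype, killed at day 10 of a response to injected sheep erythrocytes (SRBC). Each mouse carried 1 copy of Cg1Cre, a Cre recombinase that acts in B cells once they transcribe the Cγ1 heavy-chain locus. The WT mouse had Cg1Cre+/- and no floxed allele, C added Crebbp fl/+, K added Kmt2d fl/+, and CK added both Crebbp fl/+ and Kmt2d fl/+. From B220+IgD- cells, 1 droplet library of transcript 3' ends was made per mouse. All mutant alleles were heterozygous, and the recombined allele was not scored in single cells, so a mutant library can hold cells without recombination. The mice were females of 8 weeks on a C57BL/6J background. Genotype, mouse and library cannot be told apart, so values between genotypes are given without a test. Below, a row of 4 values lists WT first, then C, K and CK, and a row of 3 ratios over WT lists C, K and CK.

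In the dark zone of the GC, CB divide and mutate their antibody genes. They then leave the cell cycle and move to the light zone, where, as CC, they take up antigen and compete for help from T cells. The chemokine receptor Cxcr4 holds cells in the dark zone, whereas Cd83 and Cd86 mark cells of the light zone. Crebbp is a histone acetyltransferase and Kmt2d a methyltransferase of histone H3, and both act at enhancers in GC B cells.

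By library, the members numbered 295, 427, 459 and 614 cells. They held 1490407 to 1973132 unique molecular identifiers (UMIs, counted transcripts) per library, from libraries of 33270825 to 39803865 UMIs. The median UMI count of a member was 4915, 3751, 4083 and 2958. In the remaining transitioning cells it was 5905.5, 5216, 5413 and 4097.5. No barcode was shared between libraries among the 1795 members, although 143 of 38866 barcode sequences occurred in 2 or more libraries. The K library stood apart in its unspliced reads, whose median share in members was 22.6% against 28.1% to 29.1% in the other libraries. It was also the lowest of the libraries in the remaining transitioning cells (20.9%), CB (20.7%) and CC (25.8%). Whether this bears on the K values below was not tested.

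Markers of T cells and macrophages were scarce among the members. The summed level of 8 T cell genes was 75.3 to 110 counts per 1000000 UMIs (CPM), against 8640 to 9827 in barcodes with T cell transcripts and no Cd79a or Cd79b. The defining T cell gene Cd3e gave 2 to 13 UMIs per library. The macrophage genes C1qa, C1qb, C1qc and Csf1r were at 0 in all 4 libraries. The 7 plasma cell genes were not scarce, at a summed 3737 to 4203 CPM against 2758 to 3144 CPM in CB and 2065 to 2558 CPM in CC. Most of this came from Jchain (2152 to 3125 UMIs) and Mzb1 (3230 to 4488 UMIs), with Xbp1 at 184 to 272 UMIs. Of the other plasma cell genes, the surface protein Sdc1 gave 0 or 1 UMI and the receptor Tnfrsf17 was at 0. The part of plasma cells in the values below was not tested. The 5 erythroid genes summed to 77.8, 64.0, 84.1 and 38.5 CPM, nearly all of it from the globin gene Hbb-bt, and the erythroid gene Alas2 was at 0. That total was also lowest in CK in CB (39.3 CPM) and CC (46.1 CPM), and in barcodes with T cell transcripts it ranged from 8.3 CPM in CK to 1687 in K. The remaining transitioning cells of C held 2194 CPM of these genes, against 35.0 to 103 in the other libraries.

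The share of low-S cells among transitioning cells was highest in WT and lowest in CK. It was 62.6% in WT (exact binomial 95% interval 58.1 to 67.0, n = 471 cells) and 56.2% in C (52.6 to 59.7, n = 760). In K it was 44.6% (41.5 to 47.7, n = 1029) and in CK 41.0% (38.5 to 43.5, n = 1498). Every interval in the text covers counting error only and says nothing of the spread between mice. The differences from WT were -6.45 (-12.1 to -0.674), -18.03 (-23.4 to -12.5) and -21.6 (-26.7 to -16.4) percentage points.

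The size of this difference depended on which cells the annotation holds. The annotation stops at about 2500 detected genes, and more cells above that limit resembled transitioning cells in WT than in the mutants. When such cells received the most frequent label of their 25 nearest cells, 259, 117, 162 and 109 transitioning cells were added. Of these, 40, 16, 6 and 11 were low-S. The shares became 45.9%, 50.5%, 39.0% and 38.9%, so that C came to lie above WT, by 4.62 percentage points (-0.37 to 9.59). K and CK stayed below WT, at -6.85 (-11.5 to -2.22) and -6.998 (-11.4 to -2.60) points. In annotated cells, the same labelling returned 91.1% of transitioning cells as transitioning. Among the cells so returned, it placed 80.1% of low-S and 84.0% of remaining cells on their own side of the limit.

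Depth differed between the libraries, and its part in the shares was not tested for the cells above the gene limit. After each annotated transitioning cell was thinned to 2000 UMIs, a limit of 6 S-phase UMIs marked 63.5%, 55.04%, 47.2% and 38.7%. This left out cells with fewer UMIs, of which 2, 4, 10 and 46 were members. As a share of all annotated GC B cells, low-S cells were 24.0%, 20.9%, 17.8% and 15.5%.

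**Figure D1:**
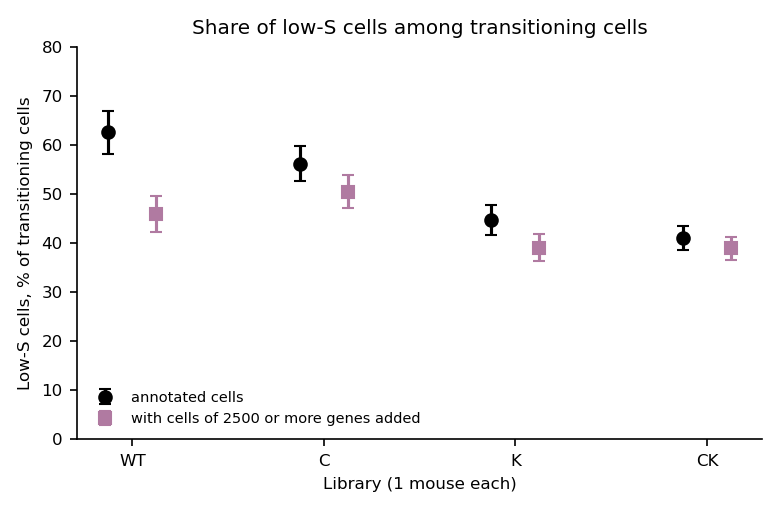
Share of low-S cells among transitioning cells (y axis, percent) in each library (x axis, 1 mouse each), for annotated cells (circles) and with cells of 2500 or more genes added (squares); bars are exact 95% binomial intervals. Circles fall from 62.6% in WT to 41.0% in CK, whereas squares lie between 38.9% and 50.5%, with C highest.

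Earlier results of these data had named 4 genes as markers of the cells. Their high levels here are set by that choice and do not check the label. Pdzd2, which encodes a protein with PDZ domains, was at 175.1, 169.8, 102.4 and 169.2 CPM. In CC it was at 92.4, 75.4, 42.7 and 106.0 CPM, and in CB at 82.1, 83.2, 54.9 and 95.5 CPM. Thus low-S cells were the highest of the subsets within each library, and K was the lowest library within each subset. The log2 ratio over CC was 0.92 (0.64 to 1.21), 1.17 (0.88 to 1.47), 1.26 (0.91 to 1.61) and 0.68 (0.44 to 0.91).

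Hpse, the enzyme that cleaves heparan sulfate, was at 118.1, 109.4, 92.2 and 86.1 CPM in low-S cells. It was above the remaining transitioning cells by log2 ratios of 0.51 to 0.64, above CB by 0.60 to 0.98 and above CC by 0.64 to 1.07. Cyp4f18, a cytochrome P450 that acts on fatty acids, was at 158.3, 150.1, 141.4 and 134.3 CPM, which was 1.32 to 1.97 above CB and 0.43 to 0.62 above CC. Apoe, a lipid carrier, was at 845.4, 929.8, 954.8 and 1017.3 CPM. It exceeded CB by 0.65 to 1.18. Over CC its ratio was 0.11 (0.0044 to 0.23), -0.20 (-0.30 to -0.11), 0.18 (0.089 to 0.27) and 0.21 (0.12 to 0.29), so that it was above CC in WT, K and CK and below CC in C. In barcodes with T cell transcripts these 4 genes were at most at 1.7 (Pdzd2), 3.2 (Hpse), 2.8 (Cyp4f18) and 27.9 CPM (Apoe). Pdzd2 lies on chromosome 15 (12359711 to 12739924), Hpse on chromosome 5 (100679484 to 100719716), Cyp4f18 on chromosome 8 (71988482 to 72009626) and Apoe on chromosome 7 (19696109 to 19699188), all on the minus strand of mm10.

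Genes are called higher or lower here when the log2 ratio was at least 0.5 in size, with 1 sign in all 4 libraries, among genes with 20 or more UMIs over the 2 sums in each library. A gene high in only 1 of the 2 subsets could pass this minimum through that subset. Counts of list genes called are therefore a description. All 4 of these genes were called higher over CB, where 2.8% of 7366 genes were. Over CC, Pdzd2 and Hpse were called, where 3.17% of 7577 genes were, and over the remaining transitioning cells Hpse was, where 0.857% of 7232 genes were. Nothing is read from these counts, as the genes were chosen for them. The subtypes were assigned by the study from these same transcripts, so every ratio between subtypes is a description without a test.

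The members had fewer transcripts of G2 and mitosis than CB. The S-phase limit did not use these genes, but the subtypes were assigned from the same transcripts, so the difference is a description. The deposited G2M score, made in the same way from genes of G2 and mitosis, was above 0 in 1.36%, 1.17%, 1.31% and 2.28% of members. In the remaining transitioning cells the share was 9.66%, 8.11%, 8.42% and 15.4%, and in CB it was 86.9% to 92.0%. Of 51 measured G2M genes, 49 were lower than in CB, where 6.91% of all genes were, with a median log2 ratio of -4.13. Against the remaining transitioning cells 32 were measured. Genes could thus pass the minimum of UMIs through CB alone, where they are high, and nothing is read from the count or the median. Summed, the list was lower than in CB by log2 ratios of -3.06 to -2.90. Mki67, the proliferation marker Ki-67, was at 89.9, 58.6, 36.0 and 75.4 CPM in low-S cells, and at 853.2, 924.0, 390.8 and 961.3 CPM in CB. In CC it was at 51.9, 56.3, 26.4 and 58.3 CPM, and K was lowest in every subset. The log2 ratio over CC was 0.79 (0.40 to 1.19), 0.059 (-0.35 to 0.47), 0.45 (-0.056 to 0.95) and 0.37 (0.036 to 0.70), above 0 in WT and CK, whereas the intervals of C and K included 0. Against CC, 6 of 29 measured G2M genes were higher and 2 lower, where 3.17% of all genes were higher and 3.44% lower.

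The S-phase list was lower than in the remaining transitioning cells for 39 of 39 measured genes, which the rule itself fixes. Here 4.3% of 7232 genes were lower, and nothing is read from the count. The summed level was 1518 to 1846 CPM in members, beside 1312 to 1675 CPM in CC and 2981 to 5311 CPM in CB. The rule limits S-phase transcripts in members but not in CB or CC, which were not chosen by S score, so these sums are a description. Within each library the members were above CC, at 1518, 1594, 1667 and 1846 CPM against 1312, 1372, 1395 and 1675 CPM.

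Summed over a list of 9 genes, transcripts of the dark zone were near the CB level in low-S cells. The deposited dark zone score, given below, was instead nearer CC. Cxcr4 was at 40.9, 32.9, 35.5 and 31.3 CPM, beside 38.5, 34.6, 29.6 and 27.2 CPM in CB and 17.5, 17.5, 13.6 and 12.6 CPM in CC. Over CC its log2 ratio was 1.23 (0.59 to 1.89), 0.91 (0.26 to 1.58), 1.39 (0.77 to 2.02) and 1.32 (0.69 to 1.97), and over CB it lay between -0.07 and 0.26. Ccnd3, the cyclin of dark zone division, was at 463.0 to 496.3 CPM against 270.6 to 282.5 CPM in CC. Gcsam, a GC signalling adaptor, was 1.61 to 2.29 above CC, and Tcf3, a transcription factor of the B lineage, 0.56 to 0.98 above it.

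As a list, the dark zone genes had 5 of 8 measured members higher than in CC, where 3.17% of all genes were, and none lower, with a median of 0.72 beside 0.09 for all genes. Against CB, 1 of 9 was lower, the DNA polymerase Polh, and none was higher, where 6.91% of all genes were lower and 2.8% higher. Foxo1, a transcription factor of the dark zone, was not called over CC, with log2 ratios of 0.23, 0.03, 0.32 and 0.50. Bcl6, the master regulator of the GC, was also not called, at -0.10 to 0.13 over CC and -0.07 to 0.33 over CB.

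Transcripts of the light zone were at the CB level rather than that of CC. Cd83 was at 83.2, 100.5, 108.5 and 93.3 CPM in low-S cells, and at 421.0, 465.6, 571.7 and 525.7 CPM in CC. The log2 ratios were -2.34 (-2.62 to -2.06), -2.21 (-2.46 to -1.97), -2.40 (-2.61 to -2.19) and -2.49 (-2.72 to -2.27). The costimulatory ligand Cd86 was at 60.4, 66.4, 73.5 and 64.1 CPM against 119.2 to 148.7 CPM in CC. The amino acid oxidase Il4i1 was lower than in CC by log2 ratios of -4.28 to -3.57, the inhibitor of NF-κB Nfkbia by -2.11 to -1.84 and the receptor Slamf1 by -1.70 to -1.58. Of 15 measured light zone genes, 12 were lower than in CC and none higher, where 3.44% of all genes were lower. The median was -1.38. Against CB 13 were measured, so some of the 15 could be measured through CC alone, and the count is a description. Summed, the list was lower than in CC by log2 ratios of -1.81 to -1.61. Over CB none of 13 was called in either direction, where 2.8% of all genes were higher and 6.91% lower. The summed level was 664 to 707 CPM in low-S cells, 546 to 663 CPM in CB and 2129 to 2334 CPM in CC.

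The related program of positive selection, which T cell help and antigen switch on, followed the light zone list. Myc gave 8 to 10 UMIs per library in low-S cells (4.6 to 6.0 CPM), against 16.5 to 36.8 CPM in CC. Of the 6 measured genes of this list, 4 were lower than in CC and none higher, where 3.44% of all genes were lower and 3.17% higher. Against CB 4 were measured, so genes could be measured here through CC alone, and the count is a description. Summed, the list was lower than in CC by log2 ratios of -2.00 to -1.22. Of 6 measured immediate early genes (4 against CB), 3 were lower than in CC, beside the same 3.44% of all genes. One of the immediate early genes, Jund, was instead higher than in CB, by 0.97 to 1.17, and near its CC level, at -0.07 to 0.25.

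**Figure D2:**
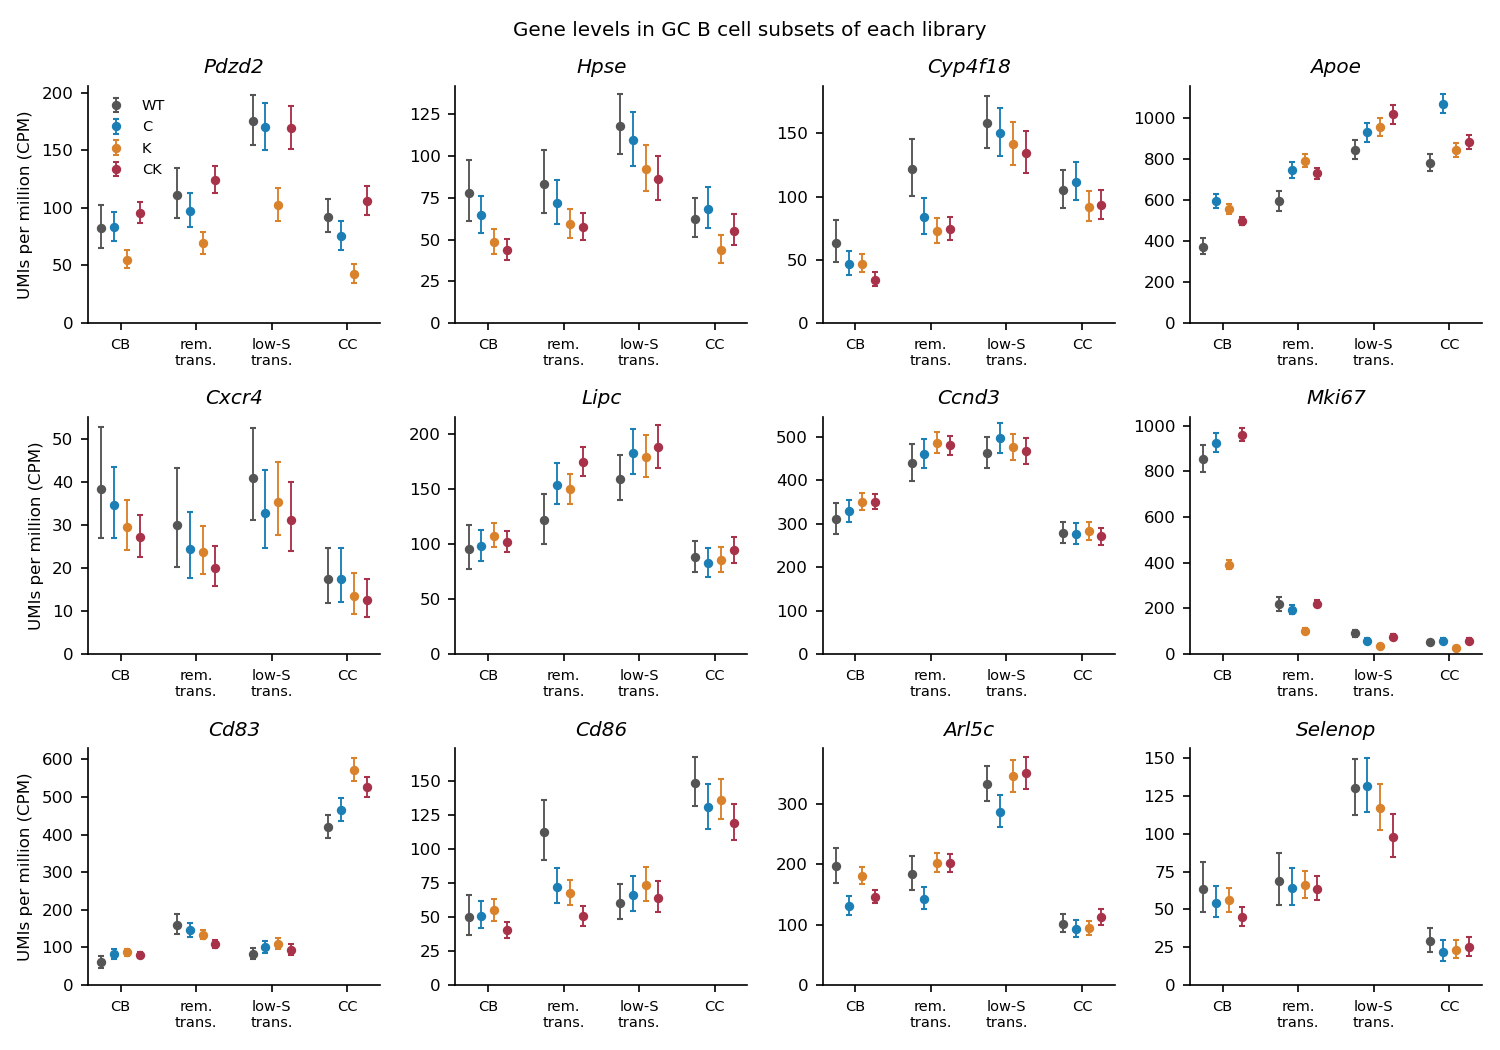
Level of 12 genes (y axis, CPM with exact 95% Poisson intervals) in CB, remaining transitioning cells (rem. trans.), low-S transitioning cells and CC (x axis) of each library (colours). Pdzd2, Hpse, Cyp4f18, Lipc, Arl5c and Selenop peak in low-S cells in each library, Cxcr4 lies above CC, and Cd83 and Cd86 lie below CC in each library.

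The genes that stood out most over both CB and CC, ranked by the ratio nearest 0 over libraries and both subsets, were Selenop, Lpp, Cd2, Arl5c, Lipc, Ypel3, Gm2447 and Pdzd2. Arl5c, a small GTPase of the Arf family, was at 332.8, 287.0, 345.6 and 350.2 CPM, which was 1.64 to 1.88 over CC and 0.76 to 1.26 over CB. Lipc, hepatic lipase, was at 159.7 to 188.7 CPM, and was 0.86 to 1.15 over CC and 0.74 to 0.90 over CB. Lpp, a protein of cell adhesions, was 0.88 to 1.29 over CC and 0.85 to 1.43 over CB. Ypel3, a gene linked to growth arrest, was at 349.6 to 399.4 CPM, 0.71 to 0.79 over CC and 1.05 to 1.21 over CB. Gm2447, an uncharacterized locus, was 0.61 to 1.09 over CC and 1.13 to 1.47 over CB.

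The levels of Selenop and Cd2 in T barcodes stand beside theirs, as free RNA can add transcripts to any droplet. Selenop, a selenium carrier, was at 130.2, 131.5, 117.1 and 97.9 CPM in low-S cells and at 21.8 to 29.0 CPM in CC. Barcodes with T cell transcripts held 120.3 to 135.3 CPM of Selenop, more than CC and about as much as the low-S cells. Cd2, an adhesion receptor, was at 275.1, 208.1, 234.7 and 160.0 CPM in low-S cells and at 91.6 to 118.7 CPM in CC. T barcodes, whose cells express Cd2, held 352.8 to 450.4 CPM. The part of free RNA in either difference was not tested.

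Many of the differences from CB were smaller against the few CB without a G2M signal. When CB and CC with a G2M score above 0 were left out, as were members with such a score, the median log2 ratio over CB went from 1.03 to -0.02 for Arl5c, from 1.42 to 0.34 for Cd2 and from 0.96 to 0.26 for Pdzd2. It went from 1.20 to 0.50 for Ypel3 and from 1.09 to 0.51 for Selenop, and stayed at 0.95 for Lpp (0.92 before). The number of genes higher than in CB fell from 206 of 7366 to 70 of 5918 and that of lower genes from 509 to 80. CB with both scores at 0 or less numbered 23, 34, 58 and 68.

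The genes furthest below both CB and CC included Marcksl1, an actin and membrane protein, at 136.3 to 151.3 CPM in low-S cells against 360.3 to 407.5 CPM in CC. Lrmp, a membrane protein of lymphoid cells, was at 163.2 to 181.5 CPM, -1.07 to -0.94 against CB and -0.996 to -0.67 against CC. Hsp90b1, a chaperone of the endoplasmic reticulum, was at -0.89 to -0.53 against CB and -0.78 to -0.61 against CC. Cep57, a centrosome protein, was at -1.28 to -0.60 against CB and -0.82 to -0.51 against CC. Hmgcs1, an enzyme of sterol synthesis, ranked next but was not called, at -0.85 to -0.48 against CB. Against CB without a G2M score above 0, the medians changed sign to 0.17 for Lrmp, 0.86 for Hsp90b1 and 0.13 for Cep57. That of Marcksl1 was -0.27.

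Within the transitioning cells, the genes furthest above the remaining cells were Gm30054, Arl5c, Klhl24, Neurl3, Tnfaip8l2 and Cd2. Klhl24, an adaptor of a ubiquitin ligase, was at 89.2, 90.9, 63.9 and 76.9 CPM against 38.5, 51.3, 33.5 and 39.8 CPM. Its level in CC was higher still, at 84.3 to 109.4 CPM. Neurl3, a ubiquitin ligase, was higher by 0.71 to 1.38, and Tnfaip8l2, a restraint on immune receptor signalling, by 0.69 to 0.81. Neurl3 (62.5 to 78.0 CPM) and Tnfaip8l2 (115.7 to 165.2 CPM) were also present in T barcodes. Gm30054, an uncharacterized locus, was higher by 1.04 to 1.23.

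The genes furthest below the remaining cells, with the S-phase list left out, were Pclaf, Chaf1a, Tk1, Asf1b, Mcm7 and Rfc4, which act in DNA synthesis or in chromatin assembly behind it. The cells were separated by an S-phase score, so this is a description of the rule. Pclaf, a partner of PCNA, was -3.13 to -2.98 and the histone chaperone Asf1b -2.88 to -2.39. The helicase subunit Mcm7 was -2.59 to -2.34.

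Genes of antigen presentation and of the B cell receptor took different positions. The summed level of 10 genes of MHC class II and its loading was 32774 to 35445 CPM in low-S cells, 24476 to 29624 CPM in CB and 51511 to 54711 CPM in CC. Of the 10, 4 were lower than in CC, where 3.44% of all genes were. None was called against CB, where 2.8% of all genes were higher and 6.91% lower. Cd74, the invariant chain, was at 24558 to 25604 CPM against 37837 to 41134 CPM in CC, a log2 ratio of -0.69 to -0.57, and the class II chain H2-Aa was at -0.79 to -0.64. Ciita, the coactivator that drives class II genes, was at 130.8, 108.2, 117.1 and 90.8 CPM against 151.0 to 216.5 CPM in CC and was not called, as K was at -0.38.

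Genes of the B cell receptor were instead near CC. The 12 genes summed to 9839 to 10690 CPM in low-S cells, 6212 to 7082 CPM in CB and 9187 to 9747 CPM in CC. None of the 12 was called over CC, where 3.17% of all genes were higher, and 1 was over CB, where 2.8% were. That gene was Cd79b, the receptor's signalling chain, at 3453 to 4154 CPM, 0.71 to 0.98 over CB.

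**Figure D3:**
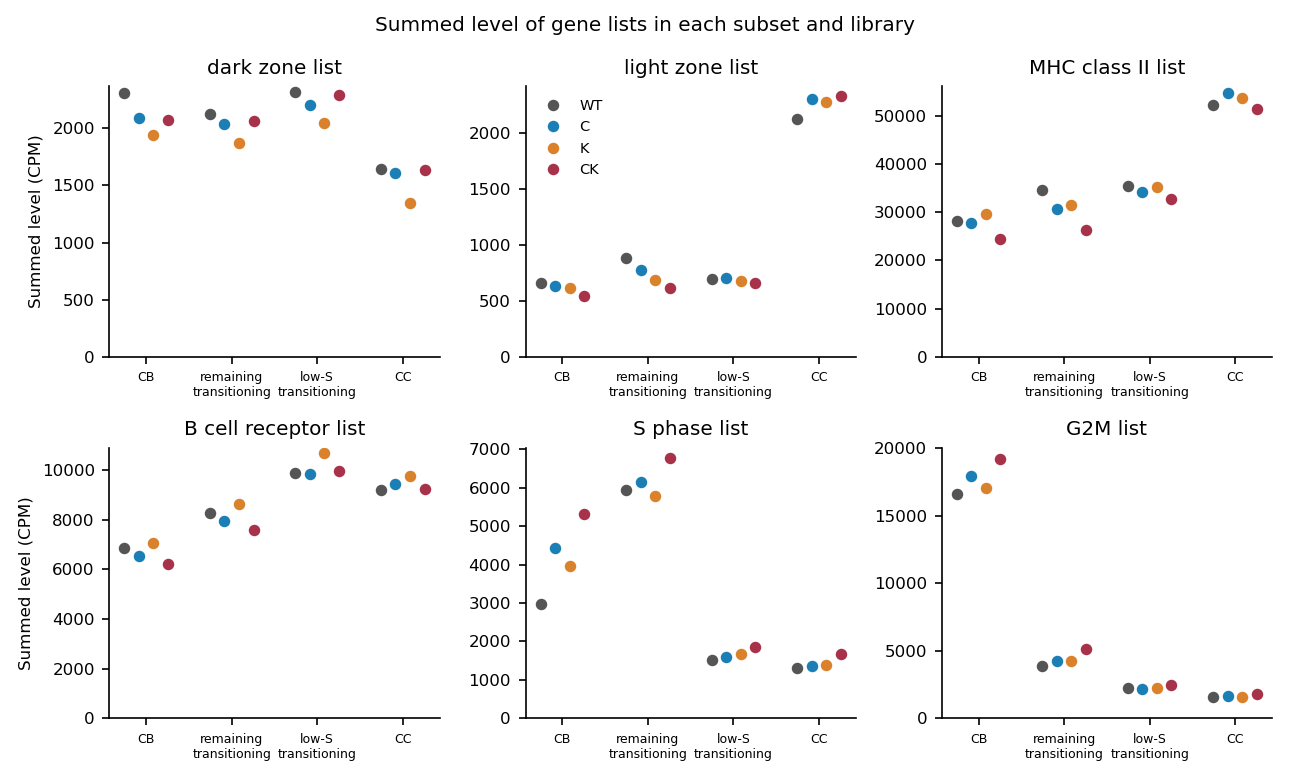
Summed level of 6 gene lists (y axis, CPM) in each subset (x axis) and library (colours). In low-S cells the dark zone list is above CC (2048 to 2322 against 1351 to 1642 CPM), the light zone list is near CB (664 to 707 CPM against 2129 to 2334 in CC), and the B cell receptor list is near CC.

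Genes of survival, exit and differentiation did not move as one group. In the Bcl2 family, the pro-death member Bcl2l11 was higher than in CC, by 0.63 to 1.28, and the pro-survival member Bcl2 was lower, by -2.51 to -1.11, on at most 9.6 CPM. Of 9 measured members 1 was higher and 3 were lower than in CC, where 3.17% of all genes were higher and 3.44% lower. Among genes of prememory cells, 5 of 7 measured were lower than in CC, beside the same 3.44% of all genes. They included Cd38 at -1.58 to -1.26 and Klf2, a regulator of lymphocyte traffic, at -1.50 to -0.94. Against CB 5 prememory genes were measured, so this count too is a description. Summed, the list was lower than in CC by log2 ratios of -0.43 to -0.33. Klf2 and Gpr183, a receptor that guides B cells out of the GC, were both higher than in the remaining transitioning cells, Klf2 by 0.54 to 1.08 and Gpr183 by 0.87 to 2.03. Gpr183 was at 9.7 to 16.1 CPM in low-S cells and 7.4 to 13.3 CPM in CC.

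Among plasma cell genes, Jchain, which joins secreted antibodies, was at 1444 to 1693 CPM, 0.86 to 1.17 over CC. Mzb1, a cofactor of antibody assembly, was at 2167 to 2378 CPM, 0.62 to 0.84 over CC. Derl3 was lower than in CC, on 3 to 7 UMIs per library. Both Jchain and Mzb1 are transcribed in GC B cells as well, and Prdm1, the regulator of plasma cells, gave 0 to 2 UMIs. All 4 measured genes of naive B cells were lower than in CC, where 3.44% of all genes were. Of the genes of GC identity, Gcsam was higher than in CC, as above, and Lmo2 was lower, at -1.58 to -0.97.

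The deposited scores for single cells placed the members between CB and CC. The median dark zone score was -0.022, -0.026, -0.024 and -0.024, between CB (0.116 to 0.136) and CC (-0.097 to -0.085). In each library it lay nearer CC than CB. The score was above 0 in 29.2%, 26.2%, 29.8% and 29.0% of members, against 92.9% to 97.8% of CB and 0.491% to 1.07% of CC. The median light zone score was -0.063 to -0.053, between CB (-0.089 to -0.080) and CC (0.0098 to 0.019). The dark zone score exceeded the light zone score in 69.5%, 69.6%, 74.5% and 69.9% of members. The same held in 98.6% to 99.1% of CB and in 2.62% to 5.56% of CC. In the remaining transitioning cells it held in 56.8%, 62.2%, 71.8% and 74.9%, a wider range among libraries than in the members. Of the members, 1302 (72.5%) belonged to 1 cluster of the deposited clustering, of whose cells they made up 84.3%. A second cluster held 316 (17.6%) and the third 133 (7.41%).

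Along the deposited pseudotime, which orders cells by their transcripts from CB through CC to prememory cells, the members lay late among transitioning cells. The members were chosen by S-phase transcripts and pseudotime was made from the same transcripts. Their position against the remaining transitioning cells is therefore a description. Position is given as the percentage of annotated WT cells ranked before a cell. The median was 47.3 (quartiles 37.2 to 58.1), 55.3 (43.6 to 68.2), 55.3 (39.9 to 66.8) and 62.1 (46.6 to 73.5). The remaining transitioning cells were at 19.8 to 21.1 in all 4 libraries. CC were at 72.2, 80.03, 80.2 and 85.7, so the mutant libraries ranked later than WT in CC as well as in low-S cells. In CB the mutant libraries ranked earlier than WT, with medians of 14.6, 8.39, 8.31 and 4.81. Mutant cells were ranked by the study together with WT in a separate ordering for each genotype, and WT positions are those of the ordering with C.

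**Figure D4:**
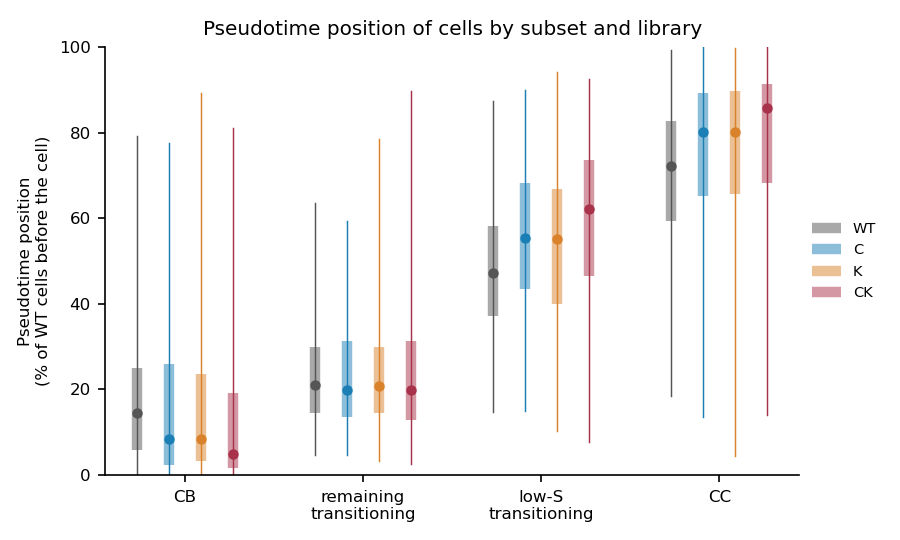
Pseudotime position (y axis, percentage of WT cells before the cell) by subset (x axis) and library (colours); points are medians, thick bars the quartiles and thin lines the full range over cells. Low-S cells have medians of 47.3 to 62.1, between the remaining transitioning cells (19.8 to 21.1) and CC (72.2 to 85.7), and their full ranges overlap with both.

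Splitting the members of each library at their median pseudotime rank left the S-phase transcripts lower in the later ones. Pseudotime was itself made from these transcripts, so the contrast is a description. Of 5683 genes, 51 (0.897%) were lower in late members in all 4 libraries and 8 (0.141%) were higher. Among the lower genes were 10 of 24 measured S-phase genes and 6 of 22 measured G2M genes. Mcm3, a subunit of the replicative helicase, was at 155.9, 177.2, 188.0 and 200.8 CPM in early members and at 41.1, 52.9, 51.3 and 71.3 CPM in late ones. The higher genes were Trio, Gm20696, Slfn2, Tbxa2r, Clec2i, 4732440D04Rik, Ms4a6c and Ero1lb. Slfn2, a gene tied to lymphocyte quiescence, rose by log2 ratios of 0.64 to 1.14, and Trio, an exchange factor for small GTPases, by 0.80 to 1.37.

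No gene of the dark zone or light zone lists was called between early and late members. Cxcr4 differed by 0.01 to 0.66 and Cd83 by -0.54 to -0.27. Late members were also shallower, with medians of 4398.5, 3196, 3481.5 and 2555 UMIs, against 5607, 4309, 4875 and 3569 in early ones.

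Between genotypes, values of the members are log2 ratios over WT, and a gene is called past 0.5 in either direction. All 3 contrasts share the WT library. Over WT, 8.68% of 7767 genes were higher in C and 8.3% lower, 6.7% of 7758 higher in K and 25.7% lower, and 9.45% of 7904 higher in CK and 9.27% lower. These counts include genes with few UMIs, and with a minimum of 50 UMIs over both libraries they were 296 and 274 genes in C, 269 and 1236 in K and 356 and 334 in CK. The median gene was at 0.01, -0.12 and 0.03. Relative to its median gene, K had 837 genes higher and 1615 lower.

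Of the 4 marker genes, Pdzd2 in K was past 0.5 from WT. As log2 ratios over WT, Pdzd2 was at -0.04 (-0.29 to 0.20), -0.77 (-1.05 to -0.50) and -0.05 (-0.29 to 0.19), and at -0.66 in K relative to the median gene. It was also below WT in the other subsets of K, at -0.68 in remaining transitioning cells, -0.58 in CB and -1.11 in CC. Cyp4f18 was at -0.08, -0.16 and -0.24, Apoe at 0.14, 0.18 and 0.27, and Hpse at -0.11, -0.36 and -0.46, and none of these passed 0.5.

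The targeted genes do not check the genotype, since reads come from 3' ends and the deleted part of each gene was not examined. Crebbp was at 74.5 (61.3 to 89.7), 45.4 (35.8 to 56.9), 42.1 (33.5 to 52.1) and 41.5 CPM (33.0 to 51.6). It was thus below WT in all 3 mutants, K included, whose Crebbp alleles were not targeted. In T barcodes it was at 79.7, 79.2, 50.4 and 63.3 CPM. Kmt2d, on 19 to 41 UMIs per library, was at 16.1, 24.5, 9.6 and 19.0 CPM, and the intervals of C, K and CK over WT all included 0.

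No gene of the dark zone and light zone lists was called higher over WT in the members. Among all genes 8.68%, 6.7% and 9.45% were. As log2 ratios, Cxcr4 was at -0.32, -0.21 and -0.39 and Ccnd3 at 0.10, 0.04 and 0.01. Cd83 was at 0.27, 0.38 and 0.17 and Cd86 at 0.14, 0.28 and 0.09. No measured dark zone gene of 8 was called in CK, and 3 of 13 light zone genes were lower, where 9.27% of all genes were. These were the receptor Cd40, at -0.97 (-1.60 to -0.36) from 38.2 CPM in WT to 19.5 in CK, Il4i1 and the survival gene Bcl2a1d, and the intervals of Il4i1 and Bcl2a1d included 0. Bcl6 was at -0.12 in C and CK and at -0.75 (-1.20 to -0.31) in K.

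Of the class II genes, none was called in C or K and 1 of 10 was lower in CK, a share near the 9.27% of all genes lower there. That gene, Ciita, was at -0.27 (-0.57 to 0.03), -0.16 (-0.44 to 0.12) and -0.53 (-0.83 to -0.23). In CK it was also lower in the remaining transitioning cells (-0.77), CB (-0.85) and CC (-0.52). The median of the 10 genes in CK was -0.22 beside 0.03 for all genes.

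S-phase genes are not compared between genotypes, since the rule limits them in every library. Below that limit the median score of members was -0.190, -0.170, -0.152 and -0.141. The log2 ratio of Mki67 over WT was -0.62 (-1.01 to -0.23), -1.32 (-1.76 to -0.90) and -0.25 (-0.60 to 0.09). In K it was below WT in every subset, T barcodes included (-1.90).

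The genes with the highest ratios of CK over WT, among genes whose ratios in C and K had the same sign, were Slpi, Cenpv, Ighg2b, Pclaf, Ighg1, Hmgn3, Ccdc28b and Lig1. Slpi, a secreted inhibitor of leukocyte proteases, was at 43.6, 94.5, 84.1 and 122.0 CPM. Its ratio was 1.12 (0.69 to 1.55), 0.95 (0.53 to 1.38) and 1.48 (1.08 to 1.90), and in the remaining transitioning cells of CK it was 1.72. Ighg1, the IgG1 constant region, was at 110.7 CPM in WT and 207.5 to 282.8 in the mutants. Ighg2b, the IgG2b constant region, was at 100.6, 226.6, 140.9 and 194.9 CPM. In T barcodes, Ighg1 was at 18.4, 17.05, 42.4 and 12.4 CPM and Ighg2b at 36.4, 9.8, 13.4 and 8.5 CPM, below the members of the same library. T barcodes were chosen to hold no Cd79a or Cd79b, so they can understate free RNA from B cells. Hmgn3, a nucleosome-binding protein, was at 165.7, 231.4, 249.9 and 304.6 CPM, with a log2 ratio of 0.88 (0.66 to 1.10) in CK.

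The log2 ratios of Cenpv, a protein of the centromere, were 1.03, 0.94 and 1.00. Pclaf was at 0.71, 0.81 and 0.92, and Lig1, the ligase that joins newly made DNA, at 0.13, 0.59 and 0.82. Both act in DNA synthesis, so the limit on the S-phase score bears on their values. Ccdc28b was at 0.48, 0.95 and 0.86. Higher values in CK were also found in the remaining transitioning cells for Pclaf (0.88), Cenpv (0.78) and Hmgn3 (0.46), but not for Ighg2b (-0.03) or Lig1 (-0.05).

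The genes with the lowest ratios were Fcer2a, Lrrk2, Adsl, Mgrn1, Lax1, Crebbp, H2-T23 and Pld4. Fcer2a, the low-affinity IgE receptor of B cells, was at 55.02, 44.8, 18.8 and 13.3 CPM. Its ratio was -0.29 (-0.77 to 0.17), -1.55 (-2.15 to -0.98) and -2.05 (-2.74 to -1.39). It was below WT in other subsets of CK too, at -2.05 in remaining transitioning cells, -0.82 in CB and -1.19 in CC. Pld4, an endolysosomal nuclease, was at 81.9, 80.7, 54.2 and 46.7 CPM, and H2-T23, a nonclassical class I molecule, at 93.3, 61.6, 74.5 and 52.8 CPM. Both were also lower in the remaining transitioning cells of CK, Pld4 at -1.37 and H2-T23 at -0.88.

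As log2 ratios, the kinase Lrrk2 was at -0.51, -1.48 and -0.90, the ubiquitin ligase Mgrn1 at -0.57, -0.98 and -0.87, and the signalling adaptor Lax1 at -0.15, -0.60 and -0.84. Adsl, an enzyme of purine synthesis, was at -0.24, -0.21 and -0.89. Its ratio in the remaining transitioning cells of CK was -0.21, with an interval from -0.66 to 0.26. With 1 library per genotype, no gene is given here as particular to the members.

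**Figure D5:**
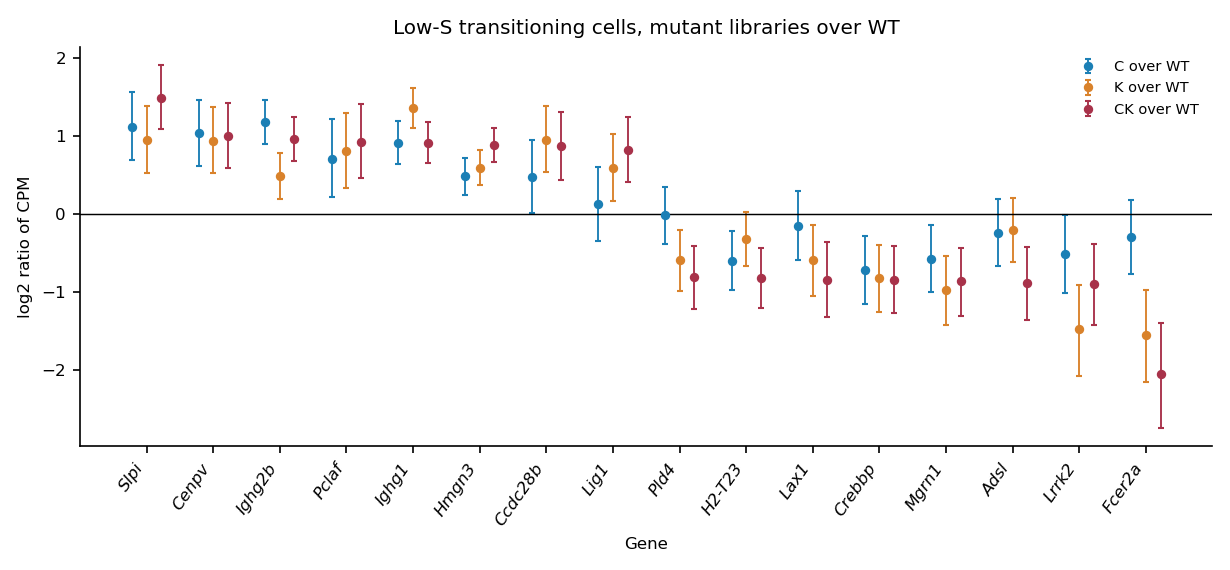
Log2 ratio of each mutant library over WT (y axis) in low-S transitioning cells for the 16 genes ranked by CK over WT (x axis), with exact 95% intervals for counting error; colours are the mutants. Slpi is highest in CK (1.48) and Fcer2a lowest (-2.05), with C at -0.29 for Fcer2a; the 3 ratios share the WT library and 1 mouse stands for each genotype.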

How the data were processed

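Per the file headers and the labels, the authors counted UMIs with Cell Ranger (3.0.2 in the headers, 3.0 in the submitters' processing notes) against mm10, and the deposited matrices hold raw counts for 31053 genes in 39009 barcodes. The annotation release is not given in the sources used here. The deposited cell table, made by the authors with Seurat (4.0), gives for 9804 GC B cells the subtype, module scores, percent of mitochondrial UMIs, pseudotime rank and cluster. The subtype names were transferred from earlier data sets. Each score is the mean of listed genes less that of control genes.

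Cells were matched to the matrices by library and barcode. Counts were summed per library and subset and divided by their total (CPM). A log2 ratio has an exact conditional binomial interval, a level an exact Poisson interval and a share an exact Clopper-Pearson interval, all at 95%. Differences of shares combine both intervals. A gene at 0 was set at 3 counts. Genes with under 20 UMIs over both sums were not measured. With 1 library per genotype, no test was made, no p-value is given, and comparisons between subtypes are descriptions. Barcodes with T cell transcripts, a reference for free RNA, were unannotated, under 8% mitochondrial UMIs, with 3 or more UMIs of 6 T cell receptor genes and none of Cd79a and Cd79b (876 to 2150 per library). The last condition selects barcodes with little B cell RNA, so their levels of B cell genes can understate free RNA. Doublets were not removed. Scrublet's automatic limit called none in C, so the top 5% of its scores in each library were left out as an alternative.

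The members, gene lists and named genes were chosen with earlier results of these data known. Named genes were the 4 marker genes, 13 genes of GC biology (1 of which is not reported here), the 8 highest and 5 lowest over both CB and CC, the 6 highest and 6 lowest against the remaining transitioning cells, and the 8 highest and 8 lowest of CK over WT among genes whose ratios in C and K had the same sign. Ranked genes had 50 CPM or more in a compared subset. Genes of the fixed lists serve as examples. Genes called between early and late members were named after their values were seen. Positions are from GENCODE vM21. Scripts used scanpy 1.11.5, scikit-learn 1.9.0, numpy 2.4.6, scipy 1.17.1, pandas 2.3.3 and matplotlib 3.10.9, and were tested on simulated data.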

Additional observations from a re-analysis of the deposited data

Results flagged for a closer look

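Of the named genes, 4 differed in sign between a mutant library and WT when low-S cells were set against another subset, with each interval on its own side of 0. The differences between libraries were not tested, and each library is 1 mouse. Apoe over CC was -0.20 in C and 0.11 in WT, as Apoe in CC was higher in C (1069 CPM) than in WT (780.7 CPM). Cd86 over the remaining transitioning cells was 0.35 in CK and -0.90 in WT, and the remaining transitioning cells held 50.4 CPM of Cd86 in CK and 112.3 CPM in WT. Slpi over CC was 0.37 in CK and -0.66 in WT. Hmgn3 over CB was 0.26 in CK and -0.57 in WT.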

How the results depend on the processing

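Limits of an S score of -0.05 or 0.05, thinning and removal of the top 5% of Scrublet scores left each mutant's share of low-S cells below WT among annotated cells. At the limit of 0.05 the difference of C from WT was -5.09 percentage points, with an interval that included 0 (-10.6 to 0.56). With cells of 2500 or more genes added, the differences from WT were 4.62 (C), -6.85 (K) and -6.998 (CK) percentage points. As shares of all annotated GC B cells they were -3.12 (C), -6.27 (K) and -8.51 (CK). With a minimum of 50 UMIs, 33 genes were higher and 203 lower than in the remaining transitioning cells and 169 lower than in CC. Over WT, 296 and 274 were higher and lower in C, 269 and 1236 in K and 356 and 334 in CK. With a minimum of 5 UMIs, 100 were higher than in the remaining transitioning cells, 1292 and 1271 were higher and lower in C, 987 were higher in K, and 1415 and 1303 were higher and lower in CK. With each cell thinned to 2000 UMIs, 170 were lower than in the remaining transitioning cells, 123 higher and 288 lower than in CB and 149 lower than in CC. Genes over WT in K numbered 837 higher relative to the median gene, 1048 higher and 726 lower relative to T barcodes, and 1021 and 889 relative to the remaining transitioning cells. By construction, fewer genes were measured with a minimum of 50 UMIs or after thinning, and more with a minimum of 5. The cause of the other changes was not tested.

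Against CB, leaving out cells with a G2M score above 0 gave 70 genes higher and 80 lower. Leaving out CB and CC with either score above 0, an alternative chosen after seeing the data, gave 74 and 71. Median log2 ratios over CB that changed sign under the first and the second were -0.024 and -0.14 for Arl5c, 0.17 and 0.16 for Lrmp, 0.86 and 0.80 for Hsp90b1, 0.13 and 0.076 for Cep57, 0.30 and 0.51 for Rfc4, 1.38 and 2.67 for Lig1, -0.18 and -0.12 for Lax1, and, under the second, 0.083 for Mcm7. The second left 23 to 68 CB per library.

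Ratios over WT that changed sign relative to the same ratio in the remaining transitioning cells were Crebbp (0.33 in C, 0.54 in K, 0.31 in CK), Kmt2d (0.28 in K), Bcl6 (0.13 in K), Ciita (0.24 in CK), Ccnb1 (-0.048 in CK), Slpi (-0.41, -0.20 and -0.24 in the mutants), Fcer2a (0.0091 in CK), Lrrk2 (0.13 in CK), H2-T23 (0.060 in CK) and Pld4 (0.55 in K, 0.56 in CK). Relative to T barcodes these were Mki67 (0.18 in C, 0.58 in K), Hmgn3 (-0.11 in K) and Pld4 (0.33 in CK).

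The planned removal of Scrublet's own calls was not run as such, since it called none in C; removing the top 5% of scores was chosen after seeing the data. Each genotype is 1 library, so no replicate was left out. No paired analysis was possible because no group has replicates. The low-S cells of WT hold the fewest UMIs, and the width of each interval over WT depends on the counts of the gene in both libraries.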
